A study of Saccharomyces cerevisiae with 119 samples.

Results

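The ethanol response of a YPS606 strain without SKN7 was compared with that of wild type in 16 RNA-seq libraries, chosen by genotype and treatment from the 119 of the series. They hold 4 libraries of the skn7 deletion after ethanol, 4 of the skn7 deletion unstressed, 4 of wild type (WT) after ethanol and 4 of WT unstressed. The series measured how Saccharomyces cerevisiae strains, and YPS606 mutants of stress transcription factors, answer mild ethanol or salt stress, because such a pretreatment lets cells survive later hydrogen peroxide. The question here was which ethanol responses need Skn7.

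YPS606 is a wild strain from oak exudate, and all cells were homozygous diploids. Both copies of SKN7 were replaced by the KanMX drug marker in the skn7 deletion (skn7::KanMX/skn7::KanMX), and WT kept both copies. EtOH libraries came from cells given 5% ethanol for 30 min, and Mock libraries from the same cultures before they were stressed. Ethanol was given by adding culture to an equal volume of medium with ethanol, while the Mock sample was taken undiluted beforehand. In both genotypes the effect of ethanol therefore cannot be told apart from that of dilution and time. Cultures grew in YPD at 30 °C, and RNA was polyA-selected. The deletion is represented by 1 strain, so that strain and genotype cannot be told apart. Each replicate number marks 1 unstressed sample and the stress samples split from it, prepared as 1 block of libraries and sequenced on 1 lane, so the 4 replicates are separate cultures.

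Skn7 is a response regulator of the Sln1-Ypd1 phosphorelay, which senses osmotic change and the state of the cell wall. It binds DNA, and together with Yap1 it activates genes for peroxiredoxins, thioredoxin and other peroxide defences. It also works with the heat shock factor Hsf1 on chaperone genes during oxidative stress. Ethanol disturbs membranes and proteins and switches on the general stress response, in which Msn2 and Msn4 bind the stress response element (STRE).

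SKN7 itself had 2, 1, 4 and 0 counts in the skn7 EtOH libraries and 3, 1, 2 and 3 in the skn7 Mock libraries, against 695, 826, 725 and 692 in WT EtOH and 1642, 1808, 1278 and 1883 in WT Mock. The labels therefore match the deleted gene in every library. The flanking genes SCH9, a growth kinase, and SET5, a histone methyltransferase, had interactions of -0.04 ± 0.12 and 0.00 ± 0.18 on the log2 scale, although unstressed SCH9 was 0.53 and SET5 0.41 higher in the deletion. Of the markers of haploid cells, MFA1 and MFA2, which encode a-factor, and MF(ALPHA)1, which encodes alpha-factor, had at most 8, 10 and 7 counts in any of the 16 libraries, while the pheromone pathway scaffold STE5 reached 206, the a-factor exporter STE6 163 and the cell cycle inhibitor FAR1 103. The summed level of 10 haploid-specific genes was 91.3 to 110.1 CPM in skn7 EtOH and 72.9 to 85.2 CPM in WT EtOH, and 78.4 to 87.7 CPM in skn7 Mock and 60.3 to 70.9 CPM in WT Mock, higher in the deletion without overlap, and its part in the results below was not tested. The 6 of these genes that were tested had a median interaction of -0.30, and 2 of them were lower at an unadjusted p below 0.05. Totals ran from 12482906 to 16339031 counts a library. The normalization factors were 1.04 to 1.26 in skn7 EtOH and 0.820 to 0.955 in WT EtOH, with skn7 EtOH replicate 1 at 1.26 farthest from 1, and their part in the results below was not tested. The median interaction over all genes was 0.01, and counts were also computed without that library.

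The main measure is the interaction: the log2 ethanol response of the skn7 deletion minus that of WT, so that a negative value means a lower response in the deletion. Levels are CPM, the counts of a gene scaled to a common library total after normalization, log2 differences are given ± SE, and each adjusted p comes from the edgeR quasi-likelihood test with Benjamini-Hochberg adjustment over 5748 genes. A gene was called at an adjusted p below 0.01 with at least a 1.5-fold difference. Ethanol changed 55.1% of the tested genes in the skn7 deletion, 1573 higher (27.4%) and 1593 lower (27.7%), against 57.6% in WT, 1646 higher (28.6%) and 1663 lower (28.9%). The response differed between the genotypes for 211 genes (3.67%), 143 lower (2.49%) and 68 higher (1.18%). In bulk RNA, fewer cells that respond and less RNA per cell cannot be told apart. All 143 lower interactions, and 66 of the 68 higher ones, had the same sign in all 4 replicate numbers, which held for 30.4% of all genes tested. The same libraries chose the called genes, so this agreement is largely built into the choice and is not separate support.

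The largest class was of ethanol-induced genes with a weaker response in the deletion. Of the 211, 97 were induced in WT with a lower response in the deletion, 42 were repressed in WT with a higher response, 27 had no called WT response and went lower, 19 were repressed more deeply, and 13 were induced more strongly. The other 13 had no called WT response and went higher. Leaving out 1 library gave 12 to 20 genes repressed more deeply, with 12 both without skn7 EtOH replicate 1 and without WT Mock replicate 2, and 5 to 11 induced more strongly. The count induced more strongly was 5 to 8 without any 1 of 10 libraries, and 9 to 11 without skn7 EtOH replicates 1 or 3, skn7 Mock replicates 2 or 4 or WT Mock replicates 2 or 4. Leaving out 1 replicate number from every group gave 55 to 80 genes induced less and 21 to 29 repressed less. Among the 97, the median response was 1.98 in the skn7 deletion and 2.87 in WT, and 78 were still called as induced in the deletion, while 3 were repressed there. Among the 42, the median response was -1.29 in the deletion and -2.35 in WT, and 29 were still repressed. In 9 separate YPS606 libraries of the strain comparison, which did not enter this fit, 92 of the 97 were again induced (23.6% of all genes there) and 37 of the 42 again repressed (21.9%). Both classes were chosen for their WT response, and the strain comparison held no skn7 libraries. These counts therefore bear on the WT response only, and not on the weaker response of the deletion.

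An interaction can lie in the level before stress, the level after ethanol, or both, and the direction of the interaction fixes which signs are possible. Of the 143 lower interactions, 53 had a called difference between the genotypes only in unstressed cells, 43 only after ethanol, 6 in both with opposite signs and 4 in both with the same sign, and 37 had neither past the limits. All 63 unstressed differences among these genes were higher in the skn7 deletion, and 49 of the 53 ethanol differences were lower. Of the 68 higher interactions, 30 had a called difference only after ethanol, 10 only in unstressed cells, 10 in both with the same sign and 1 in both with opposite signs, and 17 had neither. Over all genes, 2.71% were higher and 0.765% lower in unstressed skn7 cells (3.48% either way), and 2.84% were higher and 3.29% lower after ethanol (6.12% either way). A lower interaction thus came as a raised unstressed level, a lower level after ethanol, or smaller shifts in both. Values of 4 against 4 libraries that do not overlap are not rare: over all genes, the skn7 values lay wholly below WT for 13.5% after ethanol and 8.7% unstressed, and wholly above WT for 10.7% in each condition.

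**Figure D1:**
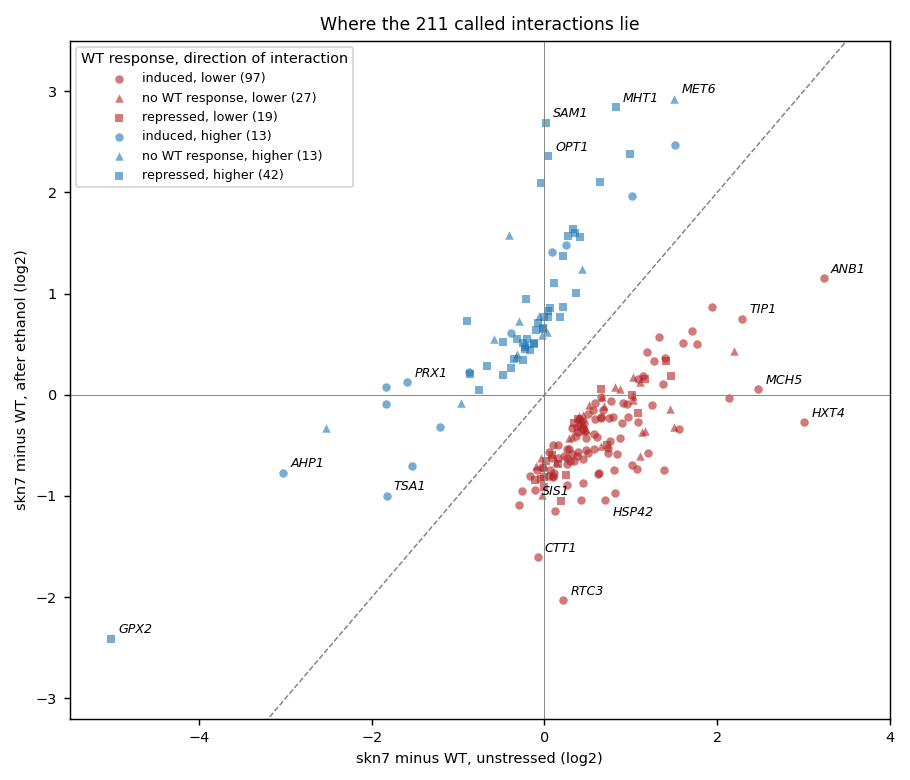
Each point is 1 of the 211 genes with a called interaction, placed by the log2 difference skn7 minus WT in unstressed cells (x) and after ethanol (y), and the dashed line marks an interaction of 0. Red genes (lower interaction) spread to the right, as HXT4 and MCH5 do, or downward, as CTT1 and RTC3 do, while blue genes (higher interaction) reach from GPX2 and AHP1 at the left to SAM1 and MET6 at the top.

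Promoter sequences of 6 genes are shown. GPX2, PRX1 and TSA1 encode peroxidases whose unstressed level was low in the deletion. AHP1, a peroxidase gene that was low there too, is not shown. CTT1, HSP42 and SIS1 are genes that reached a lower level after ethanol. Each sequence is the stretch 400 to 101 bases before the annotated start of the gene, 5′ to 3′ on the gene's strand. It comes from RefSeq build R64 of the S288c genome, and YPS606 may differ from it. Capitals mark matches on either strand to GGCCGG or GGCTGG (letters bound by Skn7), TTACTAA (Yap1), AGGGG (STRE), GAANNTTC (the heat shock element, HSE), and the added CACGTG (Cbf1) and TGACTC (Gcn4).
GPX2, chrII:707128-707427, plus strand: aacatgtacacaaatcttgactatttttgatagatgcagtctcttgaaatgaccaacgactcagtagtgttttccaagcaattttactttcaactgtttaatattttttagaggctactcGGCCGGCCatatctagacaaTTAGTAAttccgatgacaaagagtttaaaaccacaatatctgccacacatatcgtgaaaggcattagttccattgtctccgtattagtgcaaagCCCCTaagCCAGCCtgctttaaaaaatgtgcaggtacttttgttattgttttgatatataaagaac
PRX1, chrII:101257-101556, minus strand: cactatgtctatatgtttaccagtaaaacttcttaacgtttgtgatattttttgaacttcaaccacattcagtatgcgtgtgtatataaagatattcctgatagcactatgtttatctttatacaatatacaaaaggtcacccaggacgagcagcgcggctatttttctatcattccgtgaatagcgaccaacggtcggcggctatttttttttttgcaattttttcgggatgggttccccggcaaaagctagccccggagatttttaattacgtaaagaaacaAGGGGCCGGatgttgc
TSA1, chrXIII:219738-220037, plus strand: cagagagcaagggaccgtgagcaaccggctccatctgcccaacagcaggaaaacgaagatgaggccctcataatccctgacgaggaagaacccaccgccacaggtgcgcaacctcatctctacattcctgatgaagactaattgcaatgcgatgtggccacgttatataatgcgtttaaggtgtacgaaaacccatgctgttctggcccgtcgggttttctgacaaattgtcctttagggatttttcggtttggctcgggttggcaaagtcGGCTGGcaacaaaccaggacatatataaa
CTT1, chrVII:654234-654533, plus strand: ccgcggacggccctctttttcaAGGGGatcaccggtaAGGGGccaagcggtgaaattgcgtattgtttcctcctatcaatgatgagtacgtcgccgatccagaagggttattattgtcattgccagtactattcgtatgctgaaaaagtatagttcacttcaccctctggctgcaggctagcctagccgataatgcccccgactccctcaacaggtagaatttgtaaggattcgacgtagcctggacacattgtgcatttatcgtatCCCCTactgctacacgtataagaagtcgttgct
HSP42, chrIV:806221-806520, plus strand: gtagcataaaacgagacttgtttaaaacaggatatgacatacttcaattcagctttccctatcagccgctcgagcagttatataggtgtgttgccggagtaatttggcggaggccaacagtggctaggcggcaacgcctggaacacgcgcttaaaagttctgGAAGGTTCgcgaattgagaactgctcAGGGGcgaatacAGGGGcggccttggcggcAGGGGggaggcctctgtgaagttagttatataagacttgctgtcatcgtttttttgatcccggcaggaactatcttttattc
SIS1, chrXIV:619666-619965, minus strand: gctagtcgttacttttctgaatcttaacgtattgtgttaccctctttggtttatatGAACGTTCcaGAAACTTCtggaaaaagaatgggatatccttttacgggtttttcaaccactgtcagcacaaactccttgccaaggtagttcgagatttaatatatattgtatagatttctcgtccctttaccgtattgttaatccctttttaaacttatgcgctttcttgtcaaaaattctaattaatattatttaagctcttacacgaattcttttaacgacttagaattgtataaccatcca
In GPX2 the Skn7 letters lie 280 and 278 bases before the start, overlapping on the 2 strands, and again at 158, with the Yap1 letters at 260. PRX1 holds them at 113, overlapping an STRE at 116, and TSA1 at 129. CTT1 holds STREs at 378, 363 and 133, HSP42 an HSE at 238 and STREs at 212, 200 and 182, and SIS1 HSEs at 344 and 334.

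Over windows of this length before all 6001 protein-coding genes, 8.82% held the Skn7 letters, 6.82% the Yap1 letters, 23.5% an STRE and 12.4% an HSE. Among the induced genes with a lower response, 53.7% of the 95 with a window held an STRE, beside 37.5% of all genes induced in WT. The Skn7 letters were in 5.26% of these 95 and in 9.10% of all genes induced in WT. The HSE was in 13.7% and 12.6%. Of the 13 windows of induced genes with a higher response, 2 held the Skn7 letters, those of PRX1 and TSA1, and 0 the Yap1 letters. The AHP1 window, in the same class, thus held neither. The Gcn4 letters, which mark amino acid biosynthesis genes, were in 19.9% of the 141 windows of genes with a lower interaction and in 8.47% of all windows. The Yap1 letters were in 7.8% of the 141 windows of genes with a lower interaction, beside 6.82% of all windows. By place of the called difference, they were in 17.3% of 52 windows (only unstressed), 2.33% of 43 (only after ethanol) and 0 of 36 (neither). They were in 0 of 6 windows with opposite differences in both conditions and in 1 of 4 with the same. These are counts of letters in one window of the S288c reference, with no test.

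Genes that destroy hydrogen peroxide split into opposite directions. The list of catalases and peroxidases has 16 genes, of which 1 was lower and 4 were higher, beside 2.49% and 1.18% of all genes. The median interaction was 0.05 beside 0.01 for all genes. The lower one was CTT1, the cytosolic catalase. It had 139, 172, 129.7 and 124 CPM in skn7 EtOH, against 552, 387, 352 and 414 CPM in WT EtOH, and 4.16, 3.76, 3.07 and 6.58 CPM in skn7 Mock, against 4.38, 3.80, 4.60 and 5.76 CPM in WT Mock. The ethanol values of the genotypes did not overlap and the unstressed values did. CTT1 rose by 5.00 ± 0.21 in the skn7 deletion and by 6.52 ± 0.22 in WT, an interaction of -1.52 ± 0.30 (adjusted p = 0.00045), and its level after ethanol was 3.04-fold lower in the deletion.

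The 4 higher members were AHP1, PRX1 and TSA1, which encode peroxiredoxins, and GPX2, a glutathione peroxidase, and each began from a lower unstressed level in the deletion. AHP1 had 249, 254, 215 and 191 CPM in skn7 Mock, against 1863, 1856, 2033 and 1642 CPM in WT Mock. After ethanol it had 1713, 1936, 1872 and 1961 CPM in skn7 EtOH, against 3675, 3205, 2949 and 2963 CPM in WT EtOH. Ethanol thus brought AHP1 in the deletion to about the unstressed WT level, and the skn7 and WT values did not overlap in either condition. Its interaction was 2.26 ± 0.17 (adjusted p = 1.3e-13), and the deletion was 8.16-fold lower unstressed and 1.71-fold lower after ethanol.

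PRX1, the mitochondrial peroxiredoxin, had called differences only before stress. It had 278, 301, 307 and 299 CPM in skn7 EtOH and 303, 269.8, 261 and 251 CPM in WT EtOH, with overlapping values, against 5.41, 6.68, 7.87 and 10.5 CPM in skn7 Mock and 23.1, 24.4, 22.4 and 21.7 CPM in WT Mock, without overlap. Its response was 5.28 ± 0.14 in the deletion and 3.57 ± 0.12 in WT, and the difference after ethanol was 0.13 ± 0.11 (adjusted p = 0.41). TSA1, the main cytosolic peroxiredoxin, was lower in both conditions, with 1826, 2249, 2155 and 2237 CPM in skn7 EtOH, against 4654, 4266, 3946 and 3982 CPM in WT EtOH, and 548, 527, 534 and 600.1 CPM in skn7 Mock, against 1875, 1831, 2264 and 1879 CPM in WT Mock. Its interaction was 0.83 ± 0.15 (adjusted p = 0.00025).

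GPX2 was the 1 member of the list that ethanol repressed in WT. It had 1.57, 1.64, 1.61 and 2.06 CPM in skn7 EtOH, against 7.92, 9.36, 7.74 and 11.8 CPM in WT EtOH, and 3.12, 3.53, 2.28 and 2.84 CPM in skn7 Mock, against 102, 109.8, 94.5 and 78.9 CPM in WT Mock. The deletion was 32.6-fold lower unstressed and 5.31-fold lower after ethanol, and its interaction of 2.62 ± 0.26 (adjusted p = 5.3e-10) is positive because it fell less from a level that was already low. In the list of thioredoxin, glutathione and superoxide dismutase genes, 1 of 24 was called, OYE2 (an NADPH oxidoreductase), at -1.26 ± 0.14. OYE2 averaged 948 ± 70.6 CPM in skn7 EtOH and 883 ± 98.0 CPM in WT EtOH, and 706 ± 40.1 CPM in skn7 Mock and 274 ± 25.3 CPM in WT Mock (SD, n = 4 each).

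**Figure D2:**
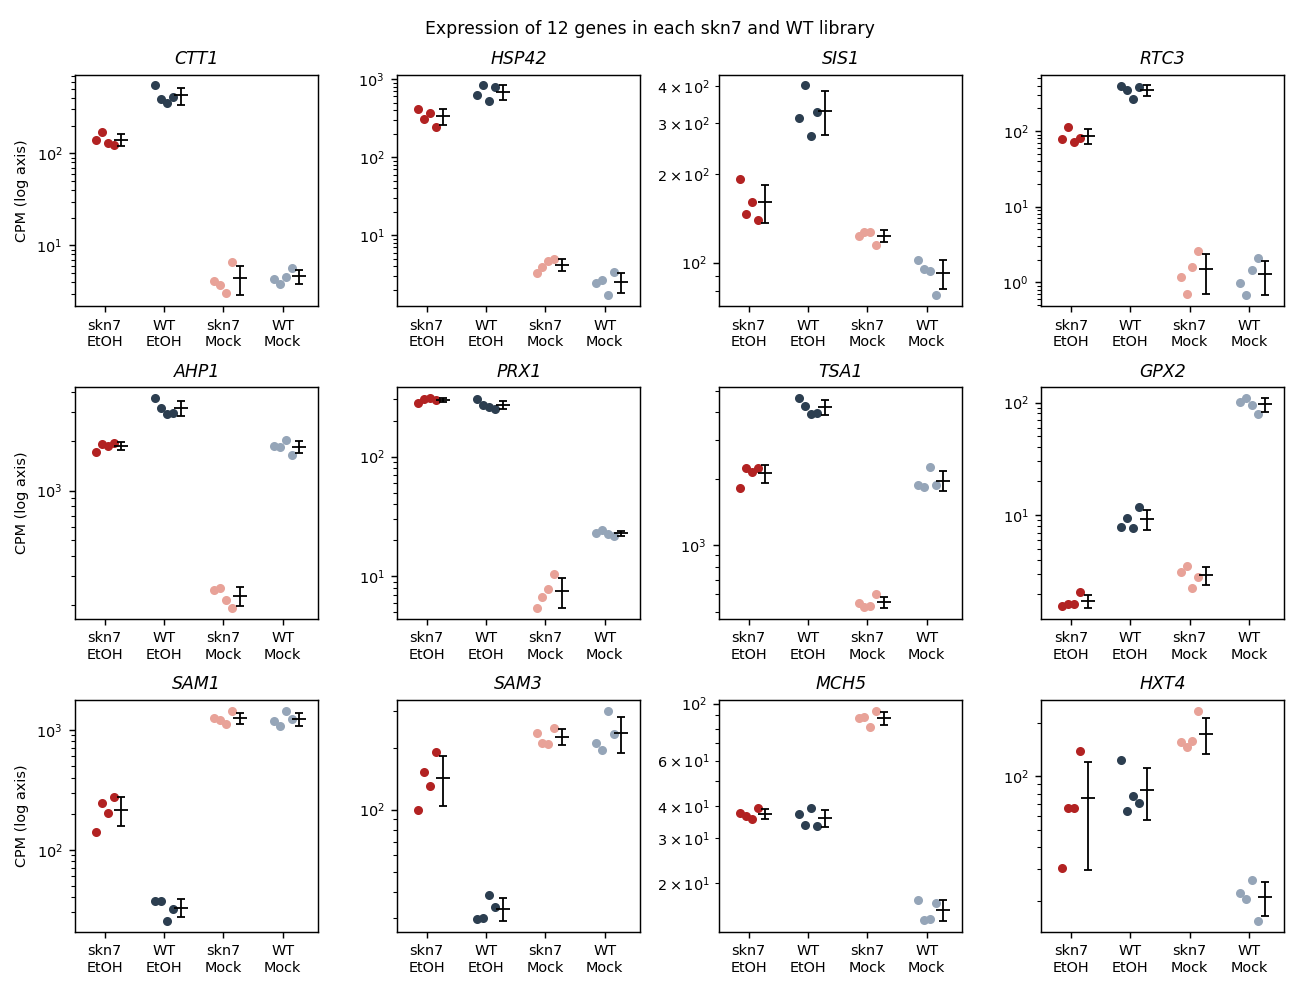
CPM on a log axis for 12 genes, with 1 point a library in skn7 EtOH, WT EtOH, skn7 Mock and WT Mock, and the mean ± SD of the 4 libraries as a black bar. CTT1, HSP42, SIS1 and RTC3 separate after ethanol, AHP1, TSA1 and GPX2 are lower in the deletion in both conditions, SAM1 and SAM3 are higher in the deletion after ethanol, and MCH5 and HXT4 separate only unstressed.

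Genes of methionine and S-adenosylmethionine (SAM) metabolism were higher in the deletion after ethanol, for 15 of 29 tested (2.84% of all genes). In unstressed cells 9 of the 29 were already higher (2.71% of all genes) and 0 lower. Of these 29 genes for sulfate assimilation and methionine, 9 had a higher interaction, beside 1.18% of all genes. None was called lower (2 were lower at an unadjusted p below 0.05, and DESeq2 called 0). The list's median interaction was 0.15. For 5 of the 9 the called difference was higher in both conditions, and for 4 only after ethanol. SAM1, a SAM synthetase, had 139, 243, 204 and 277 CPM in skn7 EtOH, against 37.2, 37.2, 25.4 and 32.0 CPM in WT EtOH, and 1249.7, 1202, 1128 and 1441 CPM in skn7 Mock, against 1192, 1075, 1431 and 1237 CPM in WT Mock. The unstressed values overlapped, and every skn7 library was above every WT library after ethanol. SAM1 fell by 2.56 in the deletion and by 5.23 in WT on the log2 scale, an interaction of 2.67 ± 0.26 (adjusted p = 5.3e-10), and its level after ethanol was 6.45-fold higher in the deletion.

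SAM3, a SAM permease, had 99.5, 152, 129.5 and 190.2 CPM in skn7 EtOH, against 29.6, 30.0, 38.6 and 33.8 CPM in WT EtOH, with an interaction of 2.14 ± 0.25 (adjusted p = 3e-08). SAM2, the other SAM synthetase, whose reads can be shared with its close copy SAM1, had 394, 488, 443 and 537 CPM in skn7 EtOH, against 114, 115, 101 and 100.2 CPM in WT EtOH, and in the deletion its response was 0.04 ± 0.13, against -1.42 ± 0.13 in WT. Neither gene overlapped between the genotypes after ethanol. MHT1, which makes methionine from S-methylmethionine, had 13.4, 15.8, 15.6 and 19.7 CPM in skn7 EtOH, against 1.89, 2.11, 1.68 and 3.40 CPM in WT EtOH, and MMP1, the S-methylmethionine permease, averaged 18.6 ± 6.16 CPM in skn7 EtOH and 3.47 ± 0.663 CPM in WT EtOH (SD, n = 4 each). OPT1, a transporter of glutathione and peptides that is in no list, had 90.6, 142, 132 and 181 CPM in skn7 EtOH, against 26.9, 23.4, 25.5 and 29.0 CPM in WT EtOH, and an interaction of 2.32 ± 0.24. Unstressed values of SAM2, MHT1 and MMP1 were also higher in the deletion without overlap, while those of SAM3 and OPT1 overlapped.

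MET6, the methionine synthase, was higher in the deletion before and after stress. It had 676, 1058, 908 and 1337 CPM in skn7 EtOH, against 138, 104, 127 and 144 CPM in WT EtOH, and 239, 248, 259 and 282 CPM in skn7 Mock, against 78.3, 93.2, 106 and 82.0 CPM in WT Mock. The values did not overlap in either condition, and the interaction was 1.42 ± 0.30 (adjusted p = 0.00096). MET13 at 1.23, MET17 at 0.96 and MUP1 at 0.81 were the other members called. The call of MET13 was lost in 9 and that of MET17 in 12 of the 16 fits that left out 1 library, with values of 1.09 to 1.36 and 0.86 to 1.06. Outside the list, GLN1, glutamine synthetase, averaged 668 ± 136 CPM in skn7 EtOH and 221 ± 38.8 CPM in WT EtOH (interaction 1.25 ± 0.27), and MXR1, a methionine sulfoxide reductase, had an interaction of 1.15 ± 0.18.

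Some chaperone genes were induced less in the skn7 deletion. Of 44 cytosolic chaperones and Hsf1 targets, 8 were lower, and none was called higher (1 was higher at an unadjusted p below 0.05, and DESeq2 called 0). The list's median interaction was -0.53, with 34 of the 44 below 0, beside 2829 of all 5748 genes. In WT 28 of the 44 were induced, and genes induced in WT leaned the same way as a group. Their median was -0.18, with 1177 of 1646 below 0 and 97 called lower. Without skn7 EtOH replicate 1, 11 were lower. For 6 of the 8 the only called difference was after ethanol. HSP42, a small heat shock protein that gathers misfolded proteins, had 418, 313, 368 and 243 CPM in skn7 EtOH, against 618, 839, 525 and 783 CPM in WT EtOH, and 3.33, 3.92, 4.64 and 5.01 CPM in skn7 Mock, against 2.45, 2.68, 1.70 and 3.42 CPM in WT Mock. The ethanol values did not overlap, the interaction was -1.74 ± 0.34 (adjusted p = 0.00052), and the level after ethanol was 2.05-fold lower.

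SIS1, an essential Hsp40 cochaperone, did not pass the limits for a response in the deletion. It had 194, 147, 162 and 140.1 CPM in skn7 EtOH, against 312, 404, 272 and 328 CPM in WT EtOH, and 123, 127, 127 and 115 CPM in skn7 Mock, against 102, 94.8, 93.8 and 77.2 CPM in WT Mock. Its response was 0.38 ± 0.14 in the deletion (adjusted p = 0.016) and 1.85 ± 0.15 in WT, and the interaction was -1.47 ± 0.20 (adjusted p = 1.4e-06). HSP78, the mitochondrial disaggregase, had 188, 134, 159 and 119.7 CPM in skn7 EtOH, against 238, 357, 240.2 and 316 CPM in WT EtOH, and 16.4, 11.9, 17.1 and 13.9 CPM in skn7 Mock, against 8.08, 8.04, 9.54 and 7.84 CPM in WT Mock. It was thus lower in the deletion after ethanol and higher unstressed, without overlap in either condition, for an interaction of -1.79 ± 0.22.

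The other called chaperones had smaller interactions: SSE2, an Hsp110 exchange factor, at -1.40 ± 0.26, HSP82, the inducible Hsp90, at -1.08 ± 0.23, SSA1, an Hsp70, at -0.94 ± 0.24, AHA1, an Hsp90 activator, at -0.88 ± 0.13, and YDJ1, an Hsp40, at -0.59 ± 0.14. HSP82 had 967, 813, 812 and 617 CPM in skn7 EtOH, against 1137, 1373, 943 and 1280.2 CPM in WT EtOH, and the lowest WT library lay below the highest skn7 library. AHA1 had 274, 306, 297 and 254 CPM in skn7 EtOH, against 441, 445, 433 and 422 CPM in WT EtOH, without overlap. SSA1 shares reads with its close paralog SSA2, and its call was lost in 10 of the 16 fits that left out 1 library (-1.10 to -0.79). HSF1 itself had an interaction of 0.06 ± 0.17.

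In the endoplasmic reticulum, 2 of 20 folding genes were lower, beside 2.49% of all genes, with a median interaction of -0.22. ERO1, which drives disulfide bond formation, had 883, 747, 809 and 590.4 CPM in skn7 EtOH, against 897, 1114, 943 and 1062 CPM in WT EtOH, and 186, 171, 171 and 168 CPM in skn7 Mock, against 109.8, 124, 114 and 109 CPM in WT Mock. Only the unstressed difference, higher in the deletion, passed the limits, and the interaction was -1.02 ± 0.16 (adjusted p = 1.8e-05). EUG1, a protein disulfide isomerase, had an interaction of -1.05 ± 0.13. In the proteasome list 1 of 44 was called, ECM29, a proteasome-associated factor, at -0.69 ± 0.14, and the median was -0.14.

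A few genes for small stress proteins and carbohydrate stores were also induced less. Of 24 genes for small stress proteins and stress markers, 3 were lower and 1 was higher, beside 2.49% and 1.18% of all genes. The median of -0.74 was the lowest of the 20 lists plotted. In WT 23 of the 24 were induced, and the closer background is the 1646 genes induced in WT, with 97 lower and a median of -0.18. The level after ethanol was lower in the deletion for 10 of the 24, beside 3.29% of all genes and 120 of the 1646. RTC3, a stress-induced gene outside the lists that is tied to RNA metabolism, was the furthest below WT after ethanol among the 143 genes with a lower interaction. It had 77.5, 114, 71.4 and 80.6 CPM in skn7 EtOH, against 392, 347, 262 and 387 CPM in WT EtOH, and 0.691 to 2.62 CPM in skn7 Mock, against 0.67 to 2.08 CPM in WT Mock. Its interaction was -2.25 ± 0.39 (adjusted p = 8.9e-05). HOR7, a small protein of hyperosmotic stress, had 194, 232, 309.7 and 445 CPM in skn7 EtOH, against 483, 364, 555 and 463 CPM in WT EtOH, with overlap, and 16.5 to 20.3 CPM in skn7 Mock, against 5.13 to 12.5 CPM in WT Mock, without overlap.

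HOR7 had an interaction of -1.71 ± 0.22, GAD1, glutamate decarboxylase, of -1.15 ± 0.22, and TFS1, a carboxypeptidase Y inhibitor, of -0.90 ± 0.22, while GRE2, a methylglyoxal reductase repressed in WT here, had 1.00 ± 0.17. The call of TFS1 was lost in 6 of the 16 fits that left out 1 library (-1.06 to -0.77). Of 23 trehalose and glycogen genes 3 were lower, beside 2.49% of all genes, and the median was -0.36. In WT 20 of the 23 were induced, so the genes induced in WT are the closer background here too. TPS1, trehalose-6-phosphate synthase, had 1785, 2263, 1928 and 1945 CPM in skn7 EtOH, against 3957, 3212, 2848 and 3064 CPM in WT EtOH, without overlap, and averaged 80.4 ± 5.59 CPM in skn7 Mock and 81.1 ± 6.38 CPM in WT Mock (SD, n = 4 each). Its interaction was -0.71 ± 0.16 (adjusted p = 0.0017). UGP1, which makes UDP-glucose, had -0.68 ± 0.15, and GSY2, the main glycogen synthase, -0.77 ± 0.18. Their calls were lost in 2 and 5 of these 16 fits, for UGP1 without WT EtOH replicate 1 and without WT Mock replicate 2.

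Sugar uptake and phosphorylation genes with a lower interaction were mostly high before stress. Of 22 hexose transporters and hexose kinases 4 were lower, 3 of them with a called raise in unstressed skn7 cells, with a median of -0.26. Of 37 glycolysis and ethanol metabolism genes 5 were lower and 1 was higher, with a median of -0.45. Over all genes 2.49% were lower and 1.18% higher. For 3 of the 5 lower glycolysis genes the only called difference was after ethanol, and for 0 only in unstressed cells. HXT4, a hexose transporter, had 155, 147, 159 and 234 CPM in skn7 Mock, against 22.1, 20.4, 26.2 and 15.3 CPM in WT Mock, and 30.7, 66.0, 66.2 and 139 CPM in skn7 EtOH, against 124, 64.2, 77.2 and 70.4 CPM in WT EtOH. The unstressed values were far apart and the ethanol values overlapped, with skn7 EtOH replicates 1 and 4 at the extremes. HXT4 was induced in WT (2.02 ± 0.27) and fell by 1.26 in the deletion, and its interaction of -3.28 ± 0.37 (adjusted p = 9.8e-09) was the largest in size of all 211.

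GLK1, glucokinase, was lower in the deletion after ethanol and higher unstressed. It had 4351, 6388, 5796 and 6815 CPM in skn7 EtOH, against 10434, 8237, 8014 and 7787 CPM in WT EtOH, and 40.6, 38.3, 44.2 and 50.2 CPM in skn7 Mock, against 23.8, 20.7, 29.6 and 22.7 CPM in WT Mock, without overlap in either condition, for an interaction of -1.43 ± 0.24. HXK1, a hexokinase, had -1.25 ± 0.25. EMI2, a paralog of glucokinase, had 1659, 1910.1, 1729 and 1635 CPM in skn7 EtOH, against 2456, 2060.2, 1949 and 1958 CPM in WT EtOH, and 31.5, 27.2, 32.3 and 31.0 CPM in skn7 Mock, against 15.1, 15.3, 17.9 and 17.5 CPM in WT Mock. Only the unstressed difference of EMI2 was called, although its values did not overlap in either condition, and its interaction was -1.18 ± 0.18. ADH5, an alcohol dehydrogenase, had 751, 994, 904 and 989 CPM in skn7 EtOH, against 1738, 1346, 1448 and 1501 CPM in WT EtOH, and 17.7, 19.9, 22.1 and 23.1 CPM in skn7 Mock, against 7.79, 8.71, 7.49 and 7.71 CPM in WT Mock, an interaction of -2.12 ± 0.21 (adjusted p = 7.5e-10).

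PYK2, a pyruvate kinase, at -1.80 ± 0.34 and ADH3, the mitochondrial alcohol dehydrogenase, at -0.96 ± 0.13 were also called. ENO1, an enolase that is nearly identical to ENO2, at -0.91 ± 0.24, BDH1, butanediol dehydrogenase, at -0.78 ± 0.20, and ACS2, acetyl-CoA synthetase, at 0.59 ± 0.14 lost their calls in 12, 13 and 8 of the 16 fits that left out 1 library. Without skn7 EtOH replicate 1 the glycolysis list had 3 lower and 3 higher.

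Some genes for amino acids, sterols and iron uptake were higher in unstressed skn7 cells. Of 77 amino acid biosynthesis genes 11 were lower and 2 were higher, beside 2.49% and 1.18% of all genes, and the median was -0.21. In unstressed cells 12 of the 77 were higher and 1 was lower, beside 2.71% and 0.765% of all genes. LYS1, saccharopine dehydrogenase, had 104, 112, 121 and 118 CPM in skn7 Mock, against 43.8, 44.3, 39.3 and 39.4 CPM in WT Mock, and 24.2, 33.5, 31.3 and 32.3 CPM in skn7 EtOH, against 31.8, 32.5, 34.6 and 35.0 CPM in WT EtOH. The unstressed values did not overlap, the ethanol values did, and the interaction was -1.59 ± 0.17 (adjusted p = 1.7e-09). ARG4, argininosuccinate lyase, had 130.0, 175, 152 and 143 CPM in skn7 EtOH, against 254, 221, 273 and 252 CPM in WT EtOH, and 39.2, 34.5, 39.0 and 39.8 CPM in skn7 Mock, against 23.4, 18.9, 21.0 and 23.9 CPM in WT Mock, so it crossed over between the conditions, with an interaction of -1.55 ± 0.17.

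HIS4, of histidine synthesis, had an interaction of -1.41 ± 0.19, ARG3, ornithine carbamoyltransferase, -1.28 ± 0.31, LYS2, of lysine synthesis, -1.21 ± 0.17, and ARG1, argininosuccinate synthetase, -1.07 ± 0.20. The call of ARG3 was lost in 6 of the 16 fits that left out 1 library (-1.46 to -1.07). Of 31 genes of the iron uptake regulon 7 were lower, beside 2.49% of all genes, and the median was -0.38. In unstressed cells 10 were higher and 1 was lower, beside 2.71% and 0.765% of all genes. TIS11, which destabilizes mRNAs in iron shortage, had 16.5, 16.7, 14.0 and 14.4 CPM in skn7 Mock, against 8.75, 8.63, 6.22 and 5.23 CPM in WT Mock, without overlap, and 9.16, 5.19, 6.01 and 4.40 CPM in skn7 EtOH, against 7.09, 8.86, 10.9 and 10.4 CPM in WT EtOH, with overlap.

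TIS11 had an interaction of -1.71 ± 0.30, ENB1, a siderophore transporter, of -1.04 ± 0.19, FRE3, a ferric reductase, of -1.01 ± 0.19, and SMF3, a vacuolar iron transporter, of -1.08 ± 0.19. FRE1, another ferric reductase, at -1.05 ± 0.27 lost its call in 10 of the 16 fits that left out 1 library. Of 27 ergosterol genes 6 were lower (2.49% of all genes), with a median of -0.14, and 5 were higher in unstressed cells (2.71% of all genes). ERG11, lanosterol demethylase, had 2620.4, 2553, 2582 and 2897 CPM in skn7 Mock, against 1150.3, 1151, 1356 and 1093 CPM in WT Mock, without overlap, and 180.4, 241, 216 and 256 CPM in skn7 EtOH, against 216, 182, 199 and 204 CPM in WT EtOH, with overlap. It was repressed in both genotypes, by 3.58 in the deletion and by 2.57 in WT on the log2 scale, an interaction of -1.01 ± 0.15 (adjusted p = 3.9e-06). ERG1, squalene epoxidase, had -1.27 ± 0.14, and without skn7 EtOH replicate 1 the ergosterol list had 4 called.

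MCH5, a riboflavin transporter, had a raised unstressed level and no called difference after ethanol. It had 88.1, 88.5, 80.8 and 93.8 CPM in skn7 Mock, against 17.3, 14.4, 14.6 and 16.8 CPM in WT Mock, and 37.5, 36.7, 35.5 and 39.2 CPM in skn7 EtOH, against 37.1, 33.6, 39.2 and 33.4 CPM in WT EtOH. Its interaction was -2.42 ± 0.15 (adjusted p = 1.3e-15), as ethanol raised it in WT and lowered it in the deletion. WTM1, a regulator linked to meiosis, was higher in the deletion in both conditions, with 830.1, 993, 959.9 and 1011 CPM in skn7 EtOH, against 686, 747, 595 and 526 CPM in WT EtOH, and 522, 431, 501 and 504 CPM in skn7 Mock, against 180.3, 213, 219 and 172 CPM in WT Mock. Its interaction of -0.75 ± 0.16 therefore did not come with a lower ethanol level.

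Further genes outside the lists stood among the largest interactions. RNR3, a stress-induced ribonucleotide reductase subunit, averaged 7.85 ± 1.21 CPM in skn7 EtOH and 9.84 ± 2.62 CPM in WT EtOH, and 4.70 ± 0.806 CPM in skn7 Mock and 1.58 ± 0.479 CPM in WT Mock (SD, n = 4 each), an interaction of -1.90 ± 0.32. ZRT1, the high-affinity zinc transporter, averaged 9.97 ± 0.967 CPM in skn7 EtOH and 12.5 ± 2.44 CPM in WT EtOH, and 30.1 ± 6.35 CPM in skn7 Mock and 10.7 ± 1.30 CPM in WT Mock, an interaction of -1.81 ± 0.24. Both were separated without overlap only in unstressed cells, where the deletion was higher. MPC3, a mitochondrial pyruvate carrier subunit, went the other way, with 26.9 ± 7.43 CPM in skn7 EtOH and 25.4 ± 4.24 CPM in WT EtOH, and 1.22 ± 0.266 CPM in skn7 Mock and 4.38 ± 0.941 CPM in WT Mock, an interaction of 1.91 ± 0.38. HAP1, the haem-dependent transcription factor, had an interaction of -1.15 ± 0.13, TPO4, a polyamine exporter, of 1.63 ± 0.22, and FUI1, the uridine permease, of 1.30 ± 0.27.

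Some growth genes were repressed less in the deletion. All 143 ribosome biogenesis genes tested were repressed in WT, and 8 had a higher interaction, beside 1.18% of all genes, with a list median of 0.23. The closer background is the 1663 genes repressed in WT, with 42 called higher and a median of 0.13. At an unadjusted p below 0.05, 51 of the 143 were higher and 2 lower. That compares with 363 higher and 101 lower of the 1663, and 615 higher and 742 lower of all 5748 genes. TSR1, needed to mature the small subunit, had 27.2, 23.6, 24.3 and 24.1 CPM in skn7 EtOH, against 14.6, 14.6, 18.3 and 15.5 CPM in WT EtOH, without overlap, and averaged 186 ± 15.4 CPM in skn7 Mock and 188 ± 7.39 CPM in WT Mock (SD, n = 4 each). Its interaction was 0.67 ± 0.13 (adjusted p = 0.00067). Of 138 cytosolic ribosomal protein genes, many of which have a near-identical copy that makes their counts uncertain, 3 were higher, with a median of 0.17. That share is no higher than the 42 of 1663 genes repressed in WT. The level after ethanol was lower in the deletion for 2 of the 138 and higher for 0. Of 15 RNA polymerase I genes none was called by the edgeR test or by DESeq2, 5 were higher at an unadjusted p below 0.05, and the median was 0.20.

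Cell wall and osmotic signalling genes are the classical surroundings of Skn7. Beside 2.49% of all genes lower and 1.18% higher, of 61 cell wall genes 4 were lower and 1 was higher (median -0.22), of 22 cell wall integrity genes 1 was lower and 1 was higher (median -0.11), and of 31 genes of the His-Asp phosphorelay and HOG pathway 3 were lower and 1 was higher (median -0.09). Without skn7 EtOH replicate 1, 1 of the 61 cell wall genes was lower, and the HOG list had 2 lower and none higher. TIP1, a cell wall mannoprotein, averaged 62.8 ± 14.7 CPM in skn7 EtOH and 36.7 ± 2.79 CPM in WT EtOH, and 15.9 ± 3.80 CPM in skn7 Mock and 3.20 ± 0.693 CPM in WT Mock (SD, n = 4 each), an interaction of -1.54 ± 0.28. KDX1, a protein kinase, had -1.76 ± 0.27 with 18.4 CPM in skn7 Mock and 4.06 CPM in WT Mock. ASK10, a regulator of the glycerol channel Fps1, had -1.11 ± 0.15, and GPD2, a glycerol-3-phosphate dehydrogenase, -1.03 ± 0.19.

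GPD1, the osmotically induced glycerol-3-phosphate dehydrogenase, moved the other way. It averaged 1373 ± 109 CPM in skn7 EtOH and 2225 ± 389 CPM in WT EtOH, and 36.3 ± 3.63 CPM in skn7 Mock and 105 ± 14.7 CPM in WT Mock (SD, n = 4 each), an interaction of 0.83 ± 0.21 whose call was lost in 13 of the 16 fits that left out 1 library (0.73 to 0.99). MNN1, a mannosyltransferase, had 1.16 ± 0.27 and lost its call in 6 (1.02 to 1.31). Among 31 stress transcription factor genes 1 was called, CIN5, a Yap family factor, at 1.75 ± 0.45, and it lost its call in 13 (1.57 to 1.93). YAP1, MSN2 and MSN4 had interactions of -0.32 ± 0.14, 0.24 ± 0.13 and -0.33 ± 0.23 (adjusted p = 0.14, 0.25 and 0.43).

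**Figure D3:**
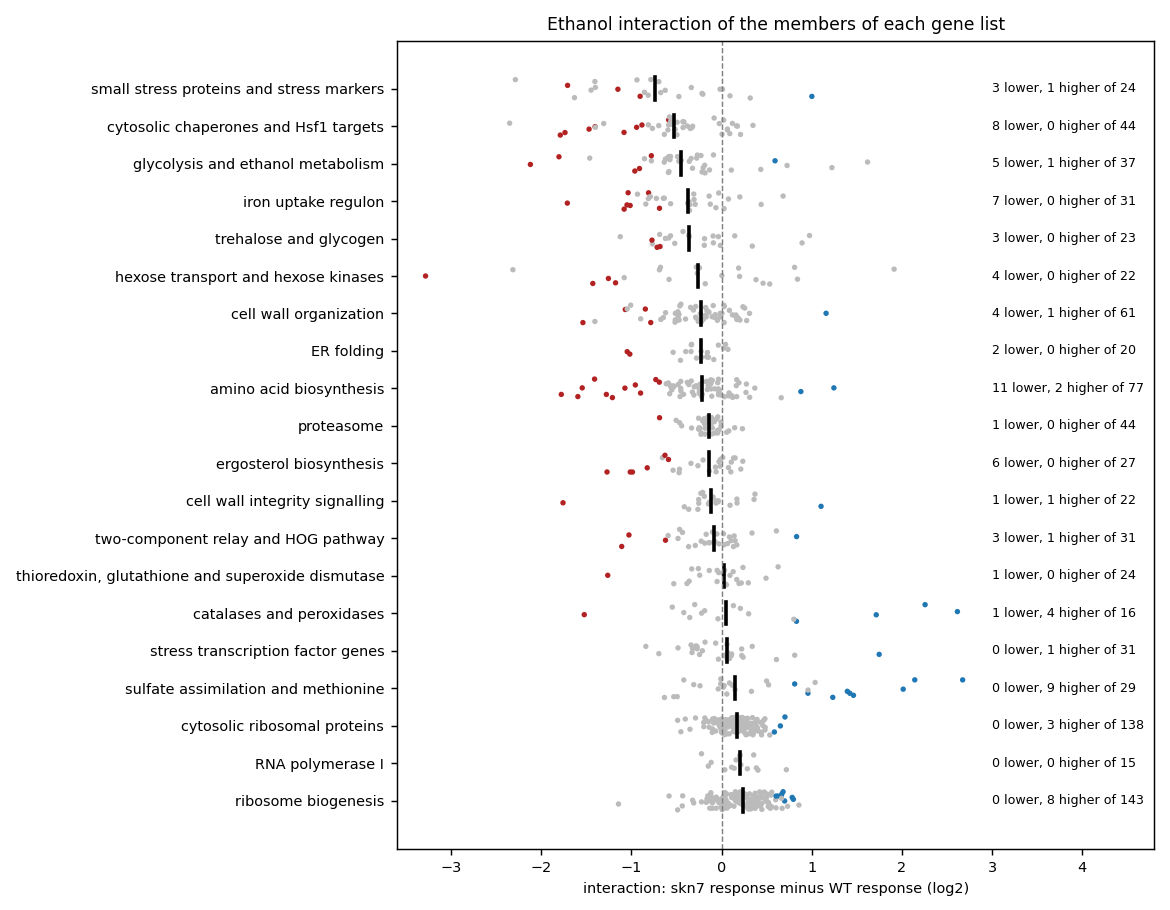
Interaction (log2, skn7 response minus WT response) of every tested member of 20 gene lists, with called lower members in red, called higher members in blue, others in grey, the list median as a black bar and the median of all genes as a dashed line. Medians run from -0.74 for small stress proteins to 0.23 for ribosome biogenesis, and the sulfate and methionine list has 9 called higher members.

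The same 211 genes were followed in the salt response of the skn7 deletion (0.4 M NaCl, 45 min) and in the ethanol response of the yap1 and msn2 msn4 deletions. These interactions use the same WT unstressed libraries. The salt interaction of skn7 also uses the 4 skn7 Mock libraries, so an unstressed difference between skn7 and WT enters both skn7 interactions, and the 3 ethanol interactions use the same WT ethanol libraries. They are therefore set side by side and not counted as separate support. The ethanol and salt interactions of skn7 differed, past the limits, for 93 of the 211 genes (10.8% of all genes), the responses of skn7 and yap1 for 48 (3.81%), and those of skn7 and msn2 msn4 for 109 (9.76%). The skn7 EtOH libraries enter these tests and the choice of the 211 genes, so nothing is read from the excess over the background. Of the 97 induced genes with a lower response, the same direction was called for 63 in skn7 after salt (8.18% of all genes were lower), 23 in yap1 after ethanol (1.25%) and 55 in msn2 msn4 after ethanol (7.88%). The closer background is the 1646 genes induced in WT, with 374 lower in skn7 after salt, 30 in yap1 and 385 in msn2 msn4. Of the 42 repressed genes with a higher response, the same direction was called for 21 in skn7 after salt (4.3% higher), 18 in yap1 (2.09%) and 28 in msn2 msn4 (5.18%). Here the closer background is the 1663 genes repressed in WT, with 217 higher in skn7 after salt, 32 in yap1 and 246 in msn2 msn4.

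CTT1 had an interaction of -1.52 in skn7 after ethanol, -2.42 in skn7 after salt, 0.57 in yap1 and -6.19 in msn2 msn4. The skn7 and yap1 ethanol responses of CTT1 differed by -2.09 ± 0.30 (adjusted p = 3e-06), and those of skn7 and msn2 msn4 by 4.67 ± 0.31 (adjusted p = 3.8e-16). For AHP1, PRX1, TSA1 and GPX2 no difference between skn7 and yap1 passed the test, which does not show that they are equal. AHP1 had 2.26 and 2.56, a difference of -0.30 ± 0.17 (adjusted p = 0.26), and GPX2 had 2.62 and 2.72, a difference of -0.10 ± 0.34 (adjusted p = 0.88). In msn2 msn4, AHP1 had -0.91 and PRX1 -2.36, opposite in sign to skn7.

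SAM1 had 2.67 in skn7 and 2.54 in yap1, a difference of 0.14 ± 0.25 (adjusted p = 0.77), and 1.25 in skn7 after salt, which was lower by a tested difference of 1.42 ± 0.26 (adjusted p = 5.1e-05). HXT4 differed in sign between skn7 and yap1, at -3.28 and 2.06 (difference -5.34 ± 0.37, adjusted p = 3.6e-14). SIS1 was affected more after ethanol than after salt, at -1.47 and -0.41 (difference -1.06 ± 0.20, adjusted p = 0.00011), as was ADH5, at -2.12 and -0.39 (difference -1.73 ± 0.19, adjusted p = 2.4e-09). HSP42 was the opposite, at -1.74 after ethanol and -3.96 after salt (difference 2.22 ± 0.25, adjusted p = 2.9e-09). ARG4 had -1.55 in skn7, -1.18 in yap1 and -0.06 in msn2 msn4.

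**Figure D4:**
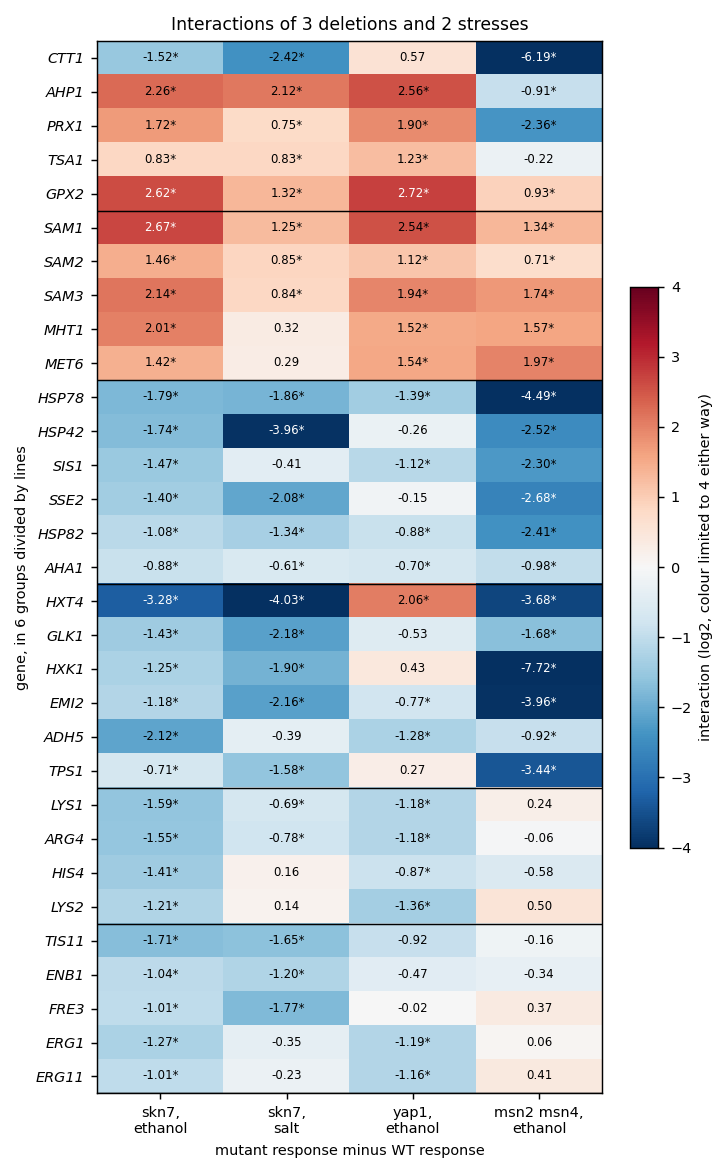
Interaction (log2, mutant response minus WT response) of 31 genes in 6 groups, for skn7 after ethanol, skn7 after salt, yap1 after ethanol and msn2 msn4 after ethanol, with an asterisk where the value was called. The peroxiredoxin, SAM and amino acid rows have the same sign in skn7 and yap1 after ethanol, while CTT1 is -1.52 in skn7, 0.57 in yap1 and -6.19 in msn2 msn4.

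Measured per culture over the genes that the 9 separate YPS606 libraries called, the median response was smaller in the deletion. The median response of 1342 genes induced there was 1.28, 1.38, 1.30 and 1.27 in skn7 cultures 1 to 4, against 1.51, 1.51, 1.45 and 1.41 in WT cultures. That of 1247 genes repressed there was -1.59, -1.48, -1.51 and -1.53 in skn7 cultures, against -1.66, -1.68, -1.72 and -1.64 in WT cultures. The cultures of the genotypes did not overlap in either set. Both sets were chosen by the response of WT cells, so genes that respond only in the deletion are left out. A smaller median in the deletion is therefore partly built into that choice. The median interaction was -0.18 over the induced set and 0.16 over the repressed set.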

How the data were processed

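The deposited table holds expected counts that the authors obtained by RSEM 1.3.1 after STAR 2.6.1 alignment to a YPS606 sequence derived from the S288c genome (per the methods and the submitters' processing notes). Expected counts were rounded to whole numbers here. The 48 libraries of the transcription factor experiment (12 groups of 4) were fitted together in R 4.3.3 with edgeR 4.0.16 (TMM, quasi-likelihood test in its version 3 form, prior count 0.125), with group and replicate number as terms and Benjamini-Hochberg adjustment. Genes reaching an average of 1 CPM in any group were tested, 5748 of 6685, of which 5550 were matched to R64. CPM were computed with the normalized library totals, and the biological coefficient of variation was 0.111. Unused columns of per-sample values numbered 0. Replicates are separate cultures, and their number limits precision.

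The block follows the methods, in which a number marks 1 culture per genotype, 1 library block and 1 lane. Residuals correlated at a median of 0.0754 within a culture and 0.0585 between same-numbered libraries of other genotypes, against -0.022 otherwise. Replicates of a group differed by more than sampling noise (chi-square per degree of freedom 7.69 to 64.7). On simulated data for the skn7 ethanol interaction (5595 genes), 89.8% of 2-fold and 99.0% of 4-fold changes were recovered.

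The genes and lists were chosen with earlier results of these data known. Named were SKN7, CTT1, the 10 largest called interactions per response class (with a symbol, 1 sign in 4 of 4 replicates and 50 or more counts on average in the highest group), the 6 largest called members per list, and 8 genes that the study discusses. YDJ1, MUP1, MXR1, HSF1, ROX1, AAC3, MSN2, MSN4, YAP1 and the neighbours of SKN7 were added to these. Named genes that the text does not describe are counted in their response class. Alternatives were other normalizations, filters, blocks, thresholds and DESeq2 1.42.0, and fits without each replicate or library, of which those without 1 library were partly chosen after seeing the data. The promoter windows and the motifs CACGTG and TGACTC were also chosen then. The column layout holds no fold changes or p-values of the authors.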

Additional observations from a re-analysis of the deposited data

Results flagged for a closer look

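Among the 33 genes shown by library, 132 groups of 4 were searched for a library far from the other 3, a gap that chance gives in about 1 of 20 groups, and 8 were found. After ethanol they were GPX2 in skn7 replicate 4 at 2.06 CPM (the others 1.57 to 1.64) and GLK1 in WT replicate 1 at 10434 CPM (the others 7787 to 8237). In unstressed skn7 cells they were ERO1 in replicate 1 at 186 CPM (168 to 171), HXT4 in replicate 4 at 234 CPM (147 to 159), SAM2 in replicate 2 at 405 CPM (462 to 471) and ARG4 in replicate 2 at 34.5 CPM (39.0 to 39.8). In unstressed WT cells they were TSA1 in replicate 3 at 2264 CPM (1831 to 1879) and HSP78 in replicate 3 at 9.54 CPM (7.84 to 8.08). All 8 genes kept their call in each of the 16 fits that left out 1 library.

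A tested difference between the effects of deletions or stresses was found for 93 of the 211 genes between the ethanol and salt interactions of skn7, for 48 between the ethanol responses of skn7 and yap1, and for 109 between those of skn7 and msn2 msn4.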

How the results depend on the processing

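The count of 211 called interactions was 186 with no replicate block (185 shared) and 225 with a replicate block per culture (204 shared). Without the block 2 cell wall and 3 glycolysis genes were lower, and MET17, TFS1, ENO1 and BDH1 were not called. With the block per culture no cell wall integrity or HOG gene was higher, and FRE1 and GPD1 were not called. DESeq2 called 247 (209 shared), among them 6 small stress protein genes lower and 2 glycolysis genes higher, edgeR with DESeq2 size factors 198 (196), edgeR in its current form 206 (200), no filter 196 (193), a 5 CPM filter 211 (209), a prior count of 2 gave 211 (211) and the 16 libraries alone 210 (180). No direction reversed under the alternatives run. At an adjusted p of 0.05 there were 104 higher interactions, 342 genes for skn7 against yap1, ethanol response, 29 genes repressed more and 26 genes without WT response that were higher. With no fold limit there were 398 unstressed and 854 ethanol differences, 64 genes repressed less and 8 without WT response that were higher. At 2-fold or more there were 89 interactions (61 lower, 28 higher), 106 unstressed and 108 ethanol differences, 296 between ethanol and salt, 86 between skn7 and yap1, 299 between skn7 and msn2 msn4, and by class 44 induced less, 4 induced more, 13 repressed less, 7 repressed more and 10 lower without WT response. Leaving out 1 replicate number or 1 library gave 110 to 213 interactions, 78 to 148 lower and 29 to 71 higher, 360 to 726 differences between ethanol and salt, 98 to 158 between skn7 and yap1, 55 to 106 genes induced less, 3 to 12 induced more, 21 to 46 repressed less, 10 to 20 repressed more, and without WT response 9 to 25 lower and 5 to 16 higher. The lowest total, 110, came without replicate 3, and without replicate 4 it was 111. Among single libraries the lowest was 158, without WT Mock replicate 2. Without skn7 EtOH replicate 1 it was 193 (174 shared), and no stress transcription factor gene was called. Of 103 named called genes, 69 kept their call in all 16 fits without 1 library and 34 lost it in at least 1. A replicate block per culture gives no unstressed or ethanol difference between genotypes. With 4 libraries a group, simulated 2-fold interactions were recovered at 89.8%, so smaller ones may be missed. Larger ones can be missed too, as the simulation gave all genes the same coefficient of variation. HSP30 at -2.35 and DDR2 at -2.29, members of the chaperone and small stress protein lists, were not called.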

Other observations

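Some genes that are known to rise in low oxygen or low haem were higher in unstressed skn7 cells. Of 18 such genes, a list chosen after the values were seen, 7 were called higher, beside 2.71% of all genes, with a median difference of 0.57. ANB1, an oxygen-repressed translation factor, averaged 6.36 CPM in skn7 Mock and 0.643 CPM in WT Mock. AAC3, an ADP/ATP carrier, averaged 35.7 CPM in skn7 Mock and 7.94 CPM in WT Mock. HEM13, of haem synthesis, averaged 194 CPM in skn7 Mock and 86.3 CPM in WT Mock. ROX1, the repressor of such genes, averaged 36.0 CPM in skn7 Mock and 66.8 CPM in WT Mock, a difference of -0.89 ± 0.15, and -1.08 ± 0.15 after ethanol. The cell wall genes TIR1 and TIR3 had unstressed differences of -0.26 and -0.18, neither of them called. After ethanol 3 of the 18 were higher in the deletion and 1 was lower, TIR3 at -0.67. Of the 18, 6 had a lower interaction, beside 2.49% of all genes, but the call of ANB1 was lost in 6 of the 16 fits that left out 1 library (-2.64 to -1.81).

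The WT response of some methionine genes differed between the experiments in value. MET6 had a WT response of 0.51 ± 0.21 in the 8 WT libraries used here and of -2.98 in the separate YPS606 libraries, where it had 9.51, 11.0 and 14.2 CPM after ethanol and 84.8, 99.0 and 87.4 CPM unstressed. MUP1 had 0.13 ± 0.13 and -1.63, and MET13 had 1.69 ± 0.22 and 0.23. SAM1 had -5.23 in both and MHT1 -1.84 and -1.81. The difference between the experiments was not tested.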
